A study of Gasterosteus aculeatus with 29 samples.

Results

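The genes described here were near 2-fold higher in female than in male whole brains of three-spined stickleback (Gasterosteus aculeatus), a small fish studied for its paternal care. A gene was a member when it met 3 limits over 27 sequencing libraries. Its mean level was at least 1 log2 CPM, where CPM is the reads of a gene scaled to library size. Its female mean exceeded its male mean by 0.8 to 1.2 on that scale. Its pooled within-sex standard deviation (SD) was at most 0.35. Of 17730 genes in the table, 225 met the rule, and all 225 passed the filter on low values used for the tests. The members were chosen by their sex difference, their mean level and their spread within a sex in these libraries, so these values are given below as a description, with no test.

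In this species sex is set by chromosomes, with XX females and XY males, and the Y has lost many of the genes that the X carries. A gene on the X without a partner on the Y is present in 2 copies in females and 1 copy in males. If transcript level followed copy number exactly, such a gene would differ by 1 on the log2 scale. In many animals one sex adjusts the output of its X or Z genes, which is called dosage compensation, and its extent varies between lineages. The table gives no chromosome and no symbol for a gene, so whether the members lie on the X was not tested.

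The study crossed the father's exposure to predation risk during care with the offspring's own exposure as juveniles, using siblings from 10 fathers. Of these, 5 fathered the fish with paternal exposure and the other 5 those without. Paternal exposure was therefore compared between families, never among siblings. Fish had neither exposure, paternal exposure only, personal exposure only, or both, and all were sampled as whole brain. The 27 libraries held 2 females and 2 males with neither, 5 and 3 with paternal only, 5 and 4 with personal only, and 4 and 2 with both. Each library came from 1 fish, siblings of a father are related, and the labels give no age or source population. Because the tissue was a whole organ, fewer cells of a type and less RNA per cell cannot be told apart. Brain markers could not be looked up, since no gene has a symbol here.

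The rule left out 2 libraries that stood apart, both labelled male. The library neither replicate 3 had an interquartile range of 1.56 log2 units in its difference from the median library over all tested genes, against 0.243 to 0.476 in the 27. The library both replicate 7 had ordinary spread (0.309) but was already known to carry female values of sex-differing genes. Reads in the table ran from 2244609 to 55155451 per library, with a median of 8121703.

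The members formed a second peak in the distribution of sex differences. Of 11342 genes within the abundance and SD limits, 10985 (96.9%) differed by at most 0.4 in either direction. The median difference of all 11342 genes, members included, was -0.01. From there the number of genes per 0.1 of difference fell to 15 between 0.6 and 0.7 and rose again to 77 between 0.9 and 1.0. It then fell to 13 between 1.2 and 1.3. The window from 0.8 to 1.2 held 225 genes, the window from 0.4 to 0.8 held 96, and 17 genes lay above 1.2. The mirror window, higher in males by 0.8 to 1.2, held 3 genes. Just inside the limits 1 member differed by 0.801 and another by 1.19, and just outside lay genes at 0.799 and 1.21. The largest SD inside was 0.348 and the next outside 0.352, and the lowest mean inside was 1.07 and the next outside 0.93. Another 54 genes of the same abundance and difference missed the SD limit.

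**Figure D1:**
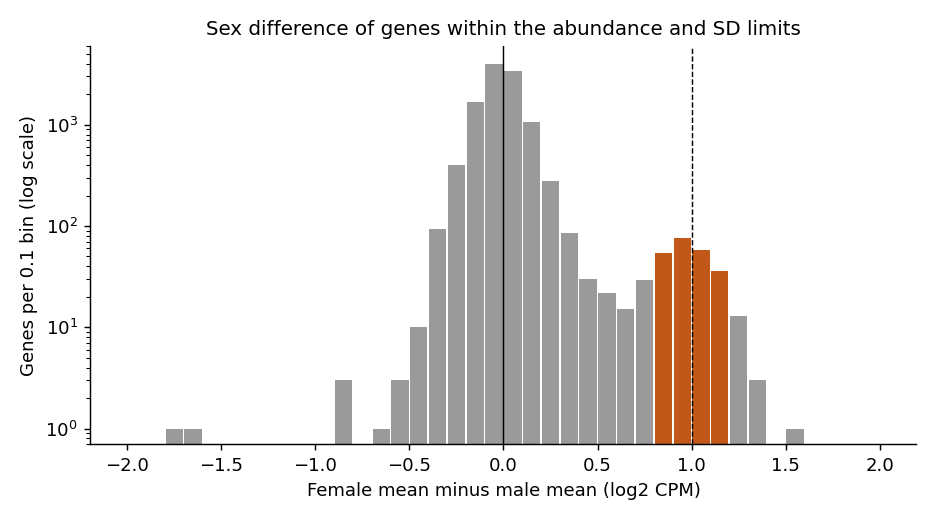
Number of genes (log scale) per 0.1 of female mean minus male mean (log2 CPM), for the 11342 genes within the abundance and SD limits; the coloured bars are the 225 members, the solid line marks 0 and the dashed line 1. The members stand as a second peak, with 77 genes between 0.9 and 1.0, beyond a low of 15 genes between 0.6 and 0.7, and 3 genes lie in the mirror window on the male side.

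The members' differences had a median of 0.98 with quartiles of 0.90 and 1.07. As ratios they ran from 1.74-fold to 2.29-fold, with a median of 1.97-fold. Differences below 1 were found in 131 members and above 1 in 94. The standard error of a difference had a median of 0.081, and 196 members lay within 2 standard errors of 1. Of the rest, 15 lay lower and 14 higher. Since the window itself spans 0.8 to 1.2, closeness to 1 is in part set by the rule.

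For 184 of the 225 members every female library lay above every male library, where 1.53% of all 16593 tested genes had this order. The rule used the same contrast, so nothing is read from the count. Of the 254 tested genes with this order, 72.4% were members. For the other 41 members the sexes overlapped in at least 1 pair of libraries. Limma, a linear model with shared variance estimates, called 225 of 225 members by sex at an adjusted p under 0.05, beside 3.67% of tested genes in either direction and 3.09% higher in females. This too follows from the choice of members.

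ENSGACG00000006703 was the most abundant member. Its lowest, median and highest values were 7.59, 7.99 and 8.16 log2 CPM in the 16 females and 6.75, 7.10 and 7.34 in the 11 males. Every female value lay above every male value, by a mean difference of 0.89 ± 0.0725 (SE). ENSGACG00000007744, the next in abundance, had 7.64, 7.94 and 8.17 in females and 6.80, 7.02 and 7.15 in males, again without overlap.

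At the other end of abundance, ENSGACG00000007133 had 0.56, 1.45 and 2.04 log2 CPM in females and -0.15, 0.63 and 1.31 in males. It was counted with 7 to 265 reads per library, and its sexes overlapped. ENSGACG00000011042 had 1.08, 1.54 and 1.91 in females and 0.23, 0.48 and 1.51 in males. Its sexes overlapped too, through its highest male and also through personal only replicate 7, a male at 1.26.

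The largest difference belonged to ENSGACG00000007281, with 2.27, 2.70 and 3.15 log2 CPM in females and 1.03, 1.51 and 1.95 in males, a ratio of 2.29-fold. ENSGACG00000007858 followed at 2.28-fold, with 1.69, 2.15 and 2.39 in females and 0.35, 0.99 and 1.34 in males. Neither gene's sexes overlapped. The smallest difference was that of ENSGACG00000011130, at 1.74-fold, with 4.34, 4.61 and 4.76 in females and 3.46, 3.83 and 3.91 in males. Its sexes did not overlap either, because its SD within a sex was 0.121. ENSGACG00000007133, described above, had the next smallest difference, 0.81 ± 0.14 (SE).

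**Figure D2:**
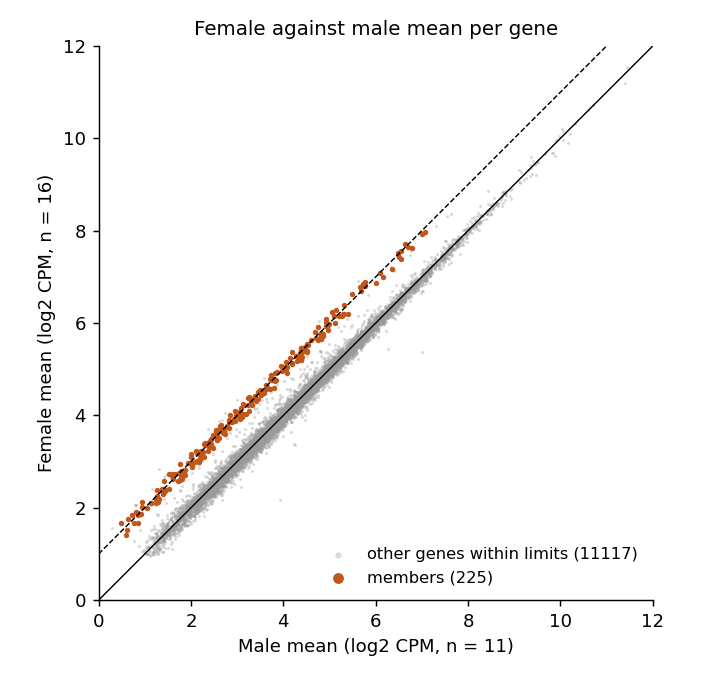
Female mean (16 libraries) against male mean (11 libraries) in log2 CPM for each gene within the abundance and SD limits; the solid line marks equal means and the dashed line a female mean higher by 1. The 225 members follow the dashed line from 1.07 to 7.60 log2 CPM of mean level, while the other genes lie mostly along the solid line.

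The members spanned a wide range of abundance. They had a median mean level of 3.65 log2 CPM, against 4.18 for all genes within the limits and 3.54 for all tested genes, and their highest level was 7.60 where that of all genes was 11.5. The window holds every difference between 0.8 and 1.2, which in part sets the values that follow. Divided into 3 equal parts by level, the 75 lowest members differed by a median of 0.95, the middle 75 by 1.00 and the highest 75 by 0.99. Across the 225 members, Pearson's r between difference and mean level was -0.0083 and Spearman's rho was 0.012; the members share the same libraries, and this is a description. Members made up 3.20% of the genes within the limits in the lowest range of level, 1.70% in the middle and 1.64% in the highest. The SD limit in part sets these shares. Of 163 genes in the window with a mean level of at least 3, 150 were members. The 54 genes that met the abundance limit and the window but missed the SD limit had a median level of 1.86. Sexes did not overlap in 43, 71 and 70 members of the 3 parts, beside 1.53% of all tested genes with every female above every male. The rule used the same contrast, so nothing is read from these counts.

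Within a sex the spread of the members was capped by the rule, as was that of the genes set beside them. Their median within-sex SD was 0.257 in the lowest part, 0.186 in the middle and 0.165 in the highest, against 0.261, 0.198 and 0.166 for all genes within the limits in the same ranges. Read counting alone gives an SD of 0.177, 0.110 and 0.060 for the typical member of each part. That came to a median of 53.7%, 31.9% and 12.1% of the variance within a sex. Over all members, 217 had at least 10 reads in every library. The deviations of members from their sex mean had a mean pairwise correlation of 0.020 over the 27 libraries, and those of the other genes within the limits 0.011. All genes share library and depth, so these are descriptions.

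The sexes were far apart in the members' mean over a whole library. It was 4.24 ± 0.034 log2 CPM (SD, n = 16) in females, from 4.19 to 4.32, and 3.26 ± 0.020 (SD, n = 11) in males, from 3.24 to 3.29. The mean of the other genes within the limits was 4.21 to 4.29 in females and 4.24 to 4.29 in males. Members took 1.62% to 1.74% of the reads in the table in females and 0.824% to 0.883% in males.

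**Figure D3:**
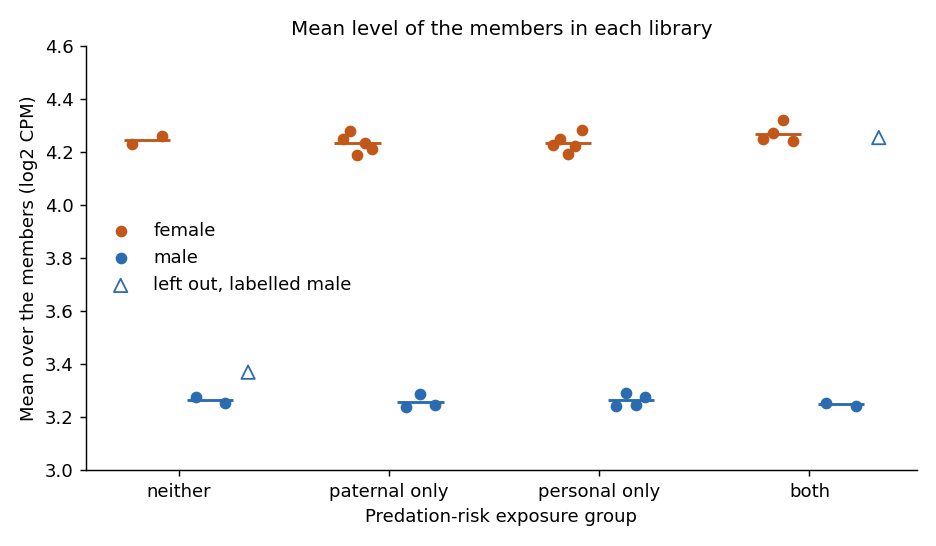
Mean of the 225 members in each library (log2 CPM), by exposure group; filled points are the 27 libraries of the rule by labelled sex, short lines are their means, and open triangles are the 2 libraries left out, both labelled male. Females lie between 4.19 and 4.32 and males between 3.24 and 3.29 in all 4 groups, and of the triangles the library both replicate 7 lies at 4.25 and neither replicate 3 at 3.37.

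The median sex difference lay between 0.97 and 1.03 in the 4 exposure groups. The rule's limits on the difference and on the SD within a sex, over these same libraries, bound how far it could vary between them. The median over members was 0.97 with neither, 0.98 with paternal only, 0.97 with personal only and 1.03 with both. All 225 members were higher in the females of each group. The female group means of the members were 4.24, 4.23, 4.24 and 4.27 log2 CPM in that order, and the male ones 3.26, 3.26, 3.26 and 3.25.

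Among the 7 fathers with offspring of both sexes in these libraries, the median difference over members between sisters and brothers ran from 0.90 (M31, 1 female and 1 male) to 1.04 (M42, 2 females and 1 male). In 6 of these families all 225 members were higher in the sisters, and for M11 223 were. Within the 5 sequencing lanes named by the library titles it ran from 0.94 to 1.00. Every lane held both sexes, lane 5 with 1 male and lane 8 with 1 female. Over all genes within the limits the median by family lay between -0.05 (M15) and 0.01 (M33). The rule chose the members in these same libraries, so likeness across families and lanes follows in part from its limits.

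Whether the sex difference depends on exposure was tested in limma from the means of each group and sex. The same limits of the rule made a large change unlikely to be found among the members, so the counts below say little about it. For paternal exposure, 0 of 225 members and 0% of tested genes were called. At an unadjusted p under 0.05 there were 13 members (5.78%), beside 4.97% of tested genes. The median over members of the change in the sex difference was 0.02 with a typical standard error of 0.16, and over all tested genes it was -0.01. For personal exposure again 0 members and 0% of tested genes were called, and 6 members (2.67%) had an unadjusted p under 0.05, beside 2.60% of tested genes. The median change was 0.03 with a typical standard error of 0.18. Limma-voom, which models read counts, called 0 members and 0 tested genes in either test. At an unadjusted p under 0.05 it gave 11 members (4.89%, beside 5.98% of tested genes) and 15 members (6.67%, beside 7.01%). With the library both replicate 7 put back as a male, the median change became -0.13 for paternal and -0.22 for personal exposure, again with 0 members called. The median member of that library lay 1.00 above the male mean, which raises the male mean of its group and narrows the sex difference there. Standard errors of this size limit the changes that can be seen in a single member.

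The members closest to a change in either direction can be named. With an exposed father the sex difference of ENSGACG00000008843 was larger by 0.44 ± 0.14 (SE) and that of ENSGACG00000013260 smaller, at -0.45 ± 0.17 (adjusted p = 0.936 for each). With personal exposure that of ENSGACG00000013122 was larger by 0.34 ± 0.13 and that of ENSGACG00000012928 smaller, at -0.43 ± 0.17 (adjusted p = 0.999 for each). For ENSGACG00000008843 the females ran from 2.72 to 3.00 log2 CPM with neither, 3.10 to 3.39 with paternal only, 3.07 to 3.41 with personal only and 3.17 to 3.46 with both. Its males ran from 2.43 to 2.48, 1.99 to 2.49, 2.14 to 2.55 and 2.05 to 2.14. The females with neither lay below those of the other groups, and the males with both lay below those with neither. This member was picked by its p-value in this same test, so nothing is read from that order.

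The exposure comparisons themselves were tested with sex in the model. The rule's limit on the SD within a sex bounds how far the exposure groups of a member can lie apart, so small exposure differences follow in part from the choice. Limma called 0 of 225 members in each of 6 comparisons. The background of called genes was 0% for paternal only and for personal only against neither, 0.0181% for both against neither, 0% for both against paternal only, 0.00603% for both against personal only and 0% for the interaction of the cues. Limma-voom also called 0 members in each, and of all tested genes 1, 1, 14, 0, 15 and 2 in the same order.

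At an unadjusted p under 0.05 limma gave 13 members for paternal only against neither (5.78%, beside 7.57% of tested genes), 5 for personal only against neither (2.22%, beside 3.98%) and 23 for both against neither (10.2%, beside 10.7%). It gave 13 for both against paternal only (5.78%, beside 4.66%), 20 for both against personal only (8.89%, beside 7.34%) and 5 for the interaction (2.22%, beside 3.72%). The share of members was below that of all genes in 4 of these comparisons and above it in 2. Limma-voom gave 17, 5, 22, 9, 16 and 9 members in the same order, or 7.56%, 2.22%, 9.78%, 4.00%, 7.11% and 4.00%. Of all tested genes it gave 11.4%, 7.86%, 15.6%, 5.91%, 12.4% and 6.65%, each above the share of members. Median differences over members were -0.02, -0.01, 0.00, 0.03, 0.02 and 0.03 in that order, with typical standard errors of 0.13, 0.12, 0.14, 0.11, 0.12 and 0.16. The comparisons with neither share its 4 libraries. With the library both replicate 7 put back as a male, both against paternal only had a median of 0.17 and 33 members (14.7%, beside 3.58% of tested genes) at an unadjusted p under 0.05. Both against personal only had a median of 0.17 and 33 members (14.7%, beside 6.46% of tested genes) at that p. Both against neither had 0.15 and 27 members (12%, beside 8.61%). In each of these comparisons 0 members were called. The values of both replicate 7, 1.00 above the male mean in its median member, enter these medians and shares as those of a male.

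Among members with the smallest p-values, ENSGACG00000006154 was higher with both exposures than with neither by 0.45 ± 0.14 (SE; adjusted p = 0.283). Its 2 males with neither had 2.48 and 2.61 log2 CPM and its 2 males with both 2.85 and 2.98. Its females ran from 3.57 to 3.89 with neither and from 3.93 to 4.34 with both, so neither sex overlapped between these groups. On the lower side of that comparison ENSGACG00000003597 had -0.35 ± 0.11 (adjusted p = 0.295). Its males had 4.91 and 5.03 log2 CPM with neither against 4.26 and 4.39 with both. Its females ran from 5.83 to 5.90 against 5.45 to 5.82. Again neither sex overlapped, though the nearest females, at 5.826 and 5.822, almost met. These 2 members were picked by their p-values in this same comparison, so nothing is read from the lack of overlap.

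For paternal only against neither, the leading members were ENSGACG00000010168 at 0.31 ± 0.11 (adjusted p = 0.564) and ENSGACG00000013489 at -0.33 ± 0.12 (adjusted p = 0.606). For personal only against neither they were ENSGACG00000010168 at 0.25 ± 0.099 and ENSGACG00000005078 at -0.29 ± 0.093 (adjusted p = 0.998 for each). In ENSGACG00000010168 the 2 males with neither had 2.04 and 2.36 log2 CPM and the males of the other groups 2.60 to 2.84, while its females overlapped, from 3.60 to 3.69 with neither and 3.46 to 3.97 elsewhere. This member was picked by its p-values in these same comparisons, which share the males with neither, so nothing is read from that order.

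For both against paternal only the leading members were ENSGACG00000009717 at 0.27 ± 0.088 and ENSGACG00000011708 at -0.29 ± 0.12 (adjusted p = 0.971 for each). For both against personal only they were ENSGACG00000008240 at 0.15 ± 0.054 and ENSGACG00000008638 at -0.25 ± 0.090 (adjusted p = 0.586 for each). For the interaction they were ENSGACG00000008016 at 0.37 ± 0.13 and ENSGACG00000010168 at -0.25 ± 0.13 (adjusted p = 0.999 for each). The males with both exposures in these libraries were 2 sons of father M15, so for that sex the group and this family cannot be told apart.

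The values of the members in the libraries that the rule left out did not enter the rule's means and SDs. Leaving these libraries out still shaped the list. With both replicate 7 put back as a male the rule gave 172 members, 164 of them shared with the 225. In the library both replicate 7, labelled male, 225 of 225 members lay nearer the female than the male mean. Of the 7681 tested genes with a higher female mean, 48.5% did. Measured in the same way against the other libraries, 216 to 225 members lay nearer the female mean in the 16 females and 0 to 13 in the 11 males. The rule chose the members with those females and males included, so their split follows in part from the choice. The median member of both replicate 7 was 0.02 above the female mean and 1.00 above the male mean. Its mean over members was 4.25 log2 CPM, and members took 1.69% of its reads, both within the range of the females. For ENSGACG00000006703 it had 8.12 log2 CPM and for ENSGACG00000007744 8.02, within the female range and above every male. The library was left out with earlier results of these data known. Which genes had shown female values then is not recorded here, and members may be among them. These values are therefore no independent check of its label.

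In the library neither replicate 3, labelled male, 90 of 225 members (40.0%) lay nearer the female mean, beside 47.1% of the tested genes with a higher female mean. Of the members, 57 lay below the lowest of the 11 males and 12 above the highest of the 16 females. The interquartile range of its members' distances from the male mean was 1.31 log2 units, against 0.179 to 0.329 in the libraries of the rule. Their summed share of reads was 0.850%, which lies within the male range. The most abundant member, ENSGACG00000006703, had 9.18 log2 CPM there, above every other library, and ENSGACG00000007133 had 0.16, inside the male range. With 1 library each, these values carry no test.

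**Figure D4:**
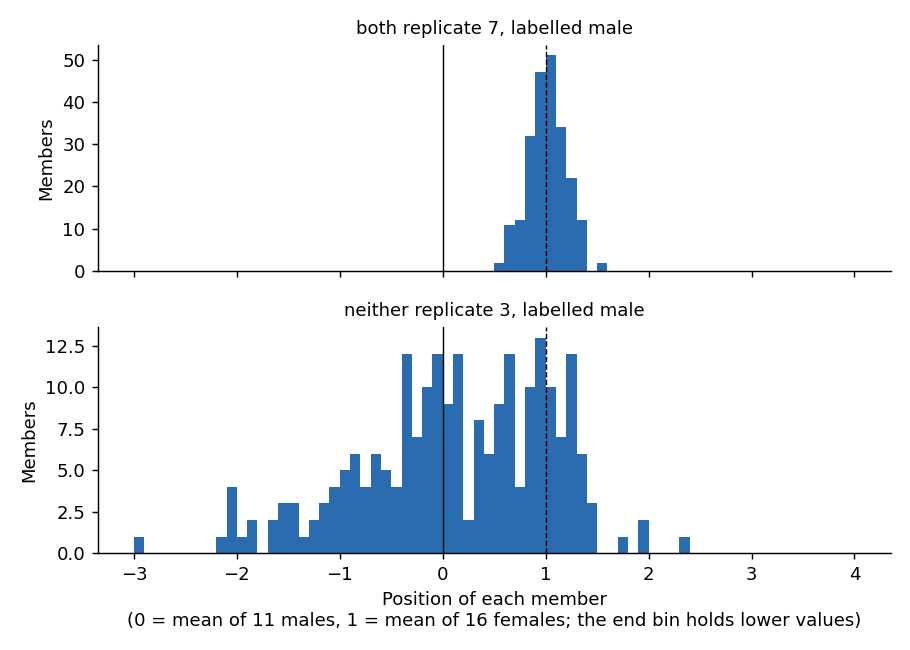
Number of members by their position in each left-out library, on a scale where 0 (solid line) is the mean of the 11 males and 1 (dashed line) the mean of the 16 females. In both replicate 7 all 225 members lie nearer 1 than 0, while in neither replicate 3 they are spread from far below 0 to above 1 and 90 lie nearer 1.

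The members also shared a range of gene identifier numbers, which the rule did not use. Identifiers in the table carry numbers from 9 to 22889, and those of the members ran from 3152 to 14093. This range was drawn from the members' own lowest and highest numbers, so it holds 225 of 225 members by construction. It held 53.6% of the genes within the limits. It also held 17 of 17 genes above 1.2 and 89 of the 96 genes between 0.4 and 0.8, and 14 of the 19 genes higher in males by more than 0.4. Members were 5.58% of the genes within the limits at numbers 7001 to 8000, where they were densest, and 0.562% at 14001 to 15000. For 6 members (2.67%) the next identifier within the limits was also a member, and the longest run was 2. Members were 3.70% of the genes within the limits in the range, near that share, so nothing is read from the count. Nothing in the labels or the table says what order the identifier numbers follow, and no position in the genome is read from them.

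**Figure D5:**
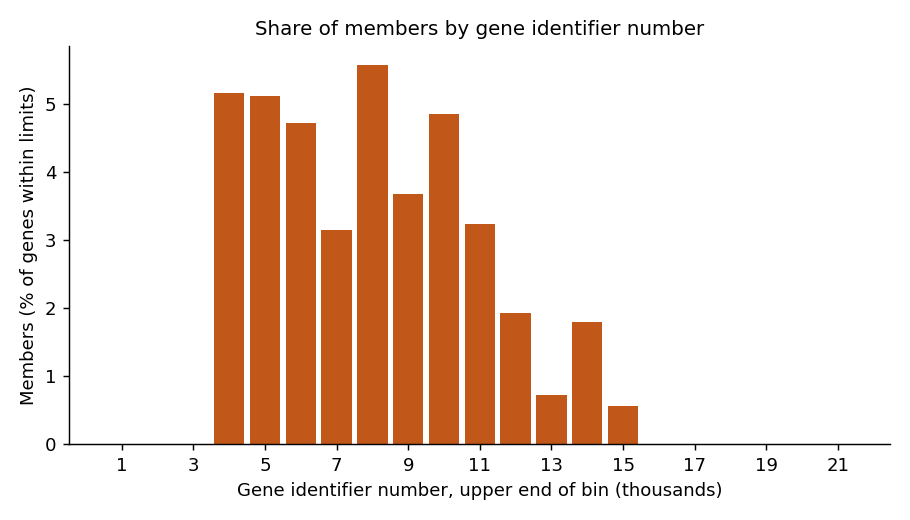
Members as a percentage of the genes within the abundance and SD limits, in bins of 1000 gene identifier numbers. All members lie between 3152 and 14093, with the highest share, 5.58%, at 7001 to 8000, and none lie in the bins below or above that range.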

How the data were processed

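Poly-A-enriched whole-brain RNA was sequenced single-end, per the labels' protocols. Per the submitters' processing notes, the tools were edgeR, HTSeq 0.6.1, TopHat2 2.0.8 and CASAVA 1.8.2, and the build was NCBIM37, a mouse assembly name. The stickleback build and the use of strand are not known, so overlapping, antisense or near-identical genes are uncertain. The authors deposited log2 CPM values for 17730 genes in 29 libraries. Undoing the log gave whole reads for 100% of values, within 0.01 reads. Reads were not marked by molecular identifiers, so the SD from read counting covers the counting of reads only and leaves out other technical error.

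Members were found by the rule on 27 libraries. The members, the lists, the libraries left out and the tests were chosen with earlier results of these data known. Genes above 0 log2 CPM in at least 5 libraries were tested (16593) in R 4.3.3 with limma-trend, from limma 3.58.1 with statmod 1.5.0. Group means and sex, or group-by-sex means, formed the model, with father as a random block (consensus correlation 0.168 and 0.166). P-values were Benjamini-Hochberg adjusted over all tested genes at 0.05. Limma-voom on the recovered reads was an alternative. Other alternatives changed the rule's limits, libraries, block, lane, filter and scaling. RefSeq's gene table (fGasAcu3.hap1.1) matched 0 identifiers, so the cell type marker lists were not measured and no sequence is shown. Identifiers named are the 2 most and least abundant members, the 2 with the largest and smallest sex difference, and the member with the smallest p on each side of a comparison.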

Additional observations from a re-analysis of the deposited data

Results flagged for a closer look

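Single fish apart from the others of their sex and exposure group were looked for in 96 sets of library measures and named members, and 3 were found. Chance alone picks out about 1 set in 20. In the 4 males with personal exposure only, ENSGACG00000011042 had 1.26 log2 CPM in replicate 7, against 0.23 to 0.39 in the others. ENSGACG00000009717 had 2.73 in replicate 2 of the same group, against 2.50 to 2.52. ENSGACG00000008016 had 2.91 in replicate 5, against 3.39 to 3.45. The members' mean level, their share of reads and the number nearer the female mean had no such value in the groups of 4 or 5 fish.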

How the results depend on the processing

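With all 29 libraries the rule gave 127 members, 122 of them shared with the 225, and with a difference from 0.9 to 1.1 it gave 135. The mirror window on the male side, with 3 genes, then held 1 and 0, and 1 with both replicate 7 put back. With only neither replicate 3 put back the rule gave 188 members, 177 of them shared, and with only both replicate 7 it gave 172, 164 of them shared. Under the other limits, weights and scaling the number of members was 150 to 267. Leaving out a neither library or a father gave 214 to 229 members, a median difference of 0.98 to 0.99, a median level of 3.62 to 3.73 log2 CPM and 3 mirror genes. In every exposure and sex-by-exposure test, 0 members were called in each of 182 alternatives, including all 29 libraries, no father block, lane as a term, other filters, equal medians and limma-voom. The members' medians did move with both replicate 7 put back, from 0.00 to 0.15, 0.03 to 0.17 and 0.02 to 0.17 for both against neither, paternal only and personal only, and from 0.03 to 0.18 for the interaction. The change in the sex difference then turned from 0.02 to -0.13 for paternal and from 0.03 to -0.22 for personal exposure, where 9 of 225 members were above 0. Without father M15 no male with both exposures is left, so the sex-by-exposure tests could not be fitted. Against siblings of the same father 222 members of both replicate 7 and 90 of neither replicate 3 lay nearer the female mean, and with equal medians 225 and 98. The replicate numbers used here count the libraries of each group in sample order and are not in the labels. No paired analysis by replicate number was therefore possible. Members near 1 log2 CPM had as few as 4 reads in a library, which limits single values there.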

Other observations

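The neighbouring sets of genes had these values in the library both replicate 7, labelled male. Of the 96 genes higher in females by 0.4 to 0.8, 86 lay nearer the female mean, with a median 0.59 above the male mean. All 17 genes above 1.2 did, with a median 1.25 above the male mean. Of the 54 genes that met the abundance limit and the window but missed the SD limit, 38 did (70.4%). Their median within-sex SD was 0.708 and in 2 of them every female library lay above every male library. Genes within 0.2 of equal means lay nearer the female mean in 45.0% of cases. In neither replicate 3, 41 of the 96, 11 of the 17 and 20 of the 54 genes lay nearer the female mean, beside 47.2% of genes within 0.2 of equal means. The sets were formed by the sex difference in the 27 libraries, with earlier results of these data known. These values are therefore no independent check of either label.

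Outside the members, 70 tested genes had every female library above every male library. Of these, 39 had a difference under 0.8, 26 a difference over 1.2, and 5 fell in the window but missed another limit. The reverse order, every male above every female, was found in 9 tested genes.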
